A study of Mus musculus with 2 samples.

Results

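The genes described here are 55 cell cycle genes of the mouse, taken by name and sorted by their place in the cycle into cyclin D and CDK4/6, CDK inhibitor, G1/S, replication and mitotic genes. Of these 55, 53 had a probe set of their own on the array, out of 19938 named genes, and where a gene had several probe sets the brightest was used. Ccnb1, a partner of the mitotic kinase CDK1, had no such probe set, and Cdkn1a, the inhibitor induced by p53, had only a probe set it shares with a second gene, so both are not analysed here. The cells were plasmacytoid dendritic cells (pDCs), the dendritic cells specialised in making type I interferon, sorted from mouse bone marrow as CD11b- BST2+ B220+ cells. They came from chimeras, mice whose blood system had been rebuilt with fetal liver cells that were either Runx2-/- or wild type, 2 months after reconstitution. Runx2 is a transcription factor best known from bone formation, and the Runx2-/- fetal liver lacked it in every donor-derived blood cell. How many mice went into a sample, their age, and the share of host cells that remained are unknown here. Each genotype was measured on 1 Affymetrix Mouse Gene 1.0 ST array, from 250 ng of total RNA. Because there was 1 array per genotype, the differences carry no error estimate and none was tested, so each describes these arrays only.

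The cell cycle is driven by cyclin-dependent kinases (CDKs), which are active only when bound to a cyclin. In G1, D-type cyclins with CDK4 and CDK6 begin to inactivate the retinoblastoma protein, which frees E2F factors to switch on genes for DNA replication; CDK inhibitors oppose this step. Later, FOXM1 and the MYB-MuvB complex raise the genes of mitosis. In the pDC lineage, dividing progenitors give rise to mature pDCs that have largely stopped dividing, so RNA of dividing cells in a pDC sort is that of a fraction of the cells. In bulk RNA of this kind, fewer cells in cycle and less RNA per cell cannot be told apart.

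Median intensity over 35556 probe sets was 183 in wild-type and 182 in Runx2-deficient cells. A gene was counted as past the brightness filter where, on either array, it reached the median log2 intensity of the named genes there, 7.61 (wild-type) and 7.54 (Runx2-deficient). All 16 measured pDC marker genes were past the filter. Beside 56.7% of all named genes, 11 of the 16 were lower in the Runx2-deficient sample. None was lower by 2-fold and 2 were by at least 1.5-fold, beside 2.22% of all named genes. Lowest were Spib and Irf7, transcription factors of pDCs and of the interferon response, at -0.69 and -0.68, and Pacsin1, at -0.56, and the highest was Runx1, at 0.47. No probe set carried Runx2 as its only gene symbol, and those with several symbols were not searched for it. The targeted gene was therefore not used as a check of the labels.

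Cell cycle genes were lower in the Runx2-deficient sample in most cases. Of the 53 measured genes, 46 (86.8%) were lower and 7 higher, against 56.7% lower among all named genes, and the lower count was 44 with median centring and 45 with a loess correction. The median difference, as log2 of the Runx2-deficient over the wild-type intensity, was -0.33 (quartiles -0.55 and -0.18), beside -0.033 over all named genes and -0.014 over those past the filter. At least 2-fold lower were 4 members, Cdkn2c, Plk1, Foxm1 and Aurkb, where 0.647% of all named genes and 1.17% of those past the filter were that far down. No member was 2-fold higher, a side that held 0.436% of named genes. At 1.5-fold, 11 members were lower and 0 higher, beside 2.22% and 1.73% of all named genes, and 3.86% of those past the filter were 1.5-fold lower. Of the 53 members, 49 passed the filter, and the other 4 (Brca1, Cdc6, Ndc80 and Ttk) were dim on both arrays, where this normalisation compresses differences.

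**Figure D1:**
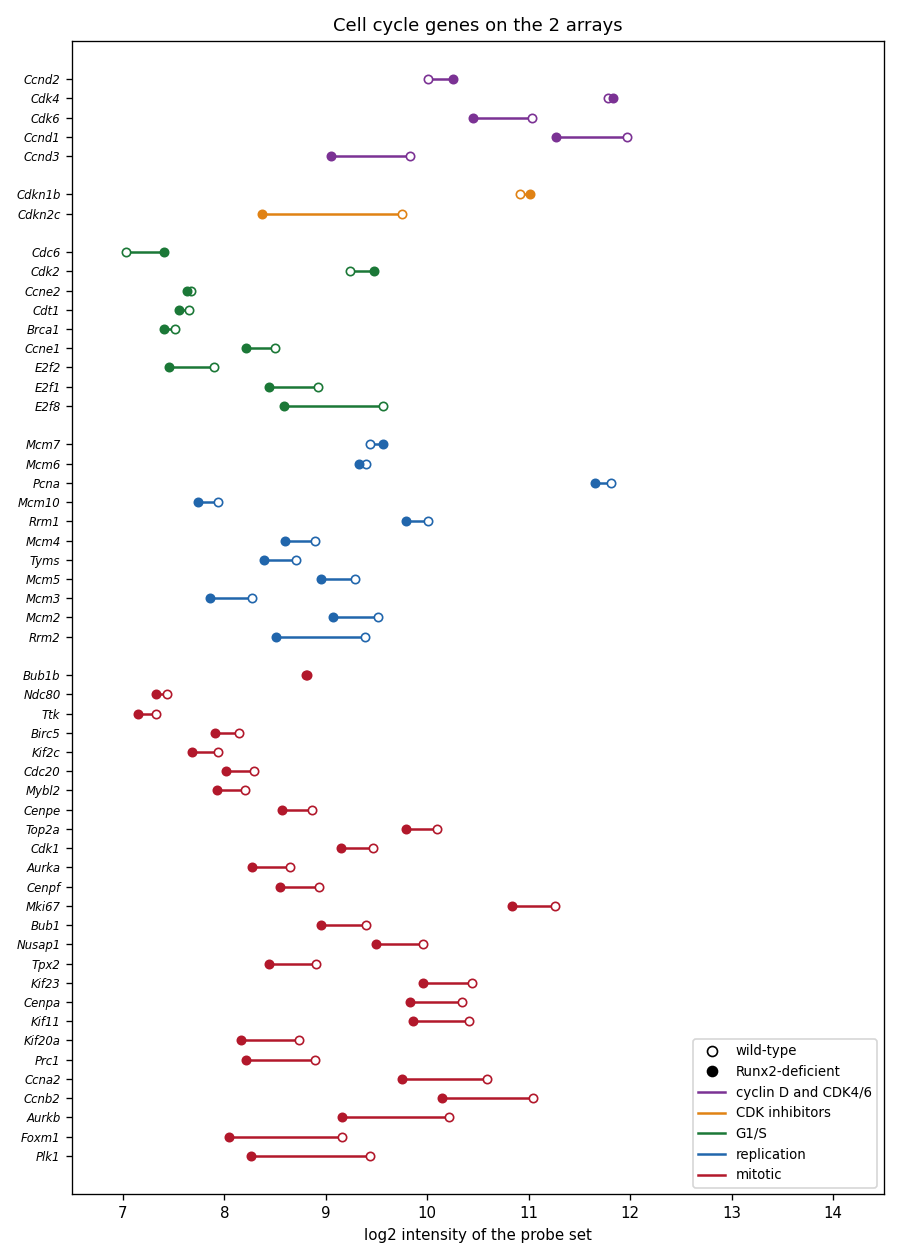
Each line joins a gene's log2 probe set intensity in the wild-type sample (open circle) and the Runx2-deficient sample (filled circle), 1 array each, coloured by phase group and sorted by difference within it. Filled circles lie left of open ones for 46 of 53 genes, and the longest line is that of Cdkn2c, at 9.75 and 8.38.

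Markers of other marrow cell types also differed between these arrays, and some of those cell types divide. For scale, 56.7% of all named genes were lower in the Runx2-deficient sample and 0.647% at least 2-fold lower. Of 17 measured granulocyte precursor markers, 17 were lower in the Runx2-deficient sample, 11 of them at least 2-fold. Their median was -1.52, with a summed intensity of 19415 in wild-type and 3519.7 in Runx2-deficient cells. The lowest were Ngp (-4.61), Lcn2 (-3.83) and S100a8 (-3.31). This list also holds genes of later granulocyte stages, so its median is not that of dividing precursors alone. Of 17 erythroid markers, 16 were lower and 6 at least 2-fold lower, with a median of -0.78 and sums of 9213 and 7149. Tfrc, the 1 higher gene, made up 3562 and 4824 of these sums. Of the 17, 8 were dim on both arrays, among them Rhag and Rhd, which were each at least 2-fold lower. Of 8 megakaryocyte and platelet markers, 7 were lower and 2 at least 2-fold lower, with a median of -0.56 and sums of 7788 and 2628. Ppbp alone made up 4838 and 156 of these sums. Of the 12 progenitor markers, 6 were lower and 6 higher (median 0.024, sums of 8187 and 9775), and of 14 B precursor markers 9 were lower (median -0.16, sums of 17856 and 21241). Kit, the stem cell factor receptor of progenitors, was 2.92-fold higher, and Dntt, the DNA polymerase of lymphoid precursors, 2.15-fold higher. Each was the 1 gene of its list at least 2-fold higher, beside 0.436% of all named genes. The lowest progenitor marker was Hoxa9 (-0.35) and the lowest B precursor marker Cd79a (-0.58). The erythroid factors Gata1 and Klf1 and the granulocyte factors Gfi1 and Cebpe were dim on both arrays. The pDC markers had a median of -0.068, with sums of 93451 and 88031. Of 10 monocyte and macrophage markers 6 were lower and 2 at least 2-fold lower (median -0.16, sums of 4680.4 and 2641). Ccr2, a chemokine receptor, and Lyz2, lysozyme, differed by -2.23 and -1.59 on the log2 scale, while C1qb and Csf1r were 1.85-fold and 1.56-fold higher. Of 11 T and NK cell markers 6 were lower, with 8 dim on both arrays. Of 10 conventional dendritic cell markers 4 were lower and 1 at least 2-fold lower (median 0.031). That gene was Itgax, which encodes CD11c, at 2047 in wild-type and 379 in Runx2-deficient cells, 5.39-fold lower. Of 6 plasma cell markers 2 were lower (median 0.12). The part of other dividing cells in the cell cycle differences was not tested.

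**Figure D2:**
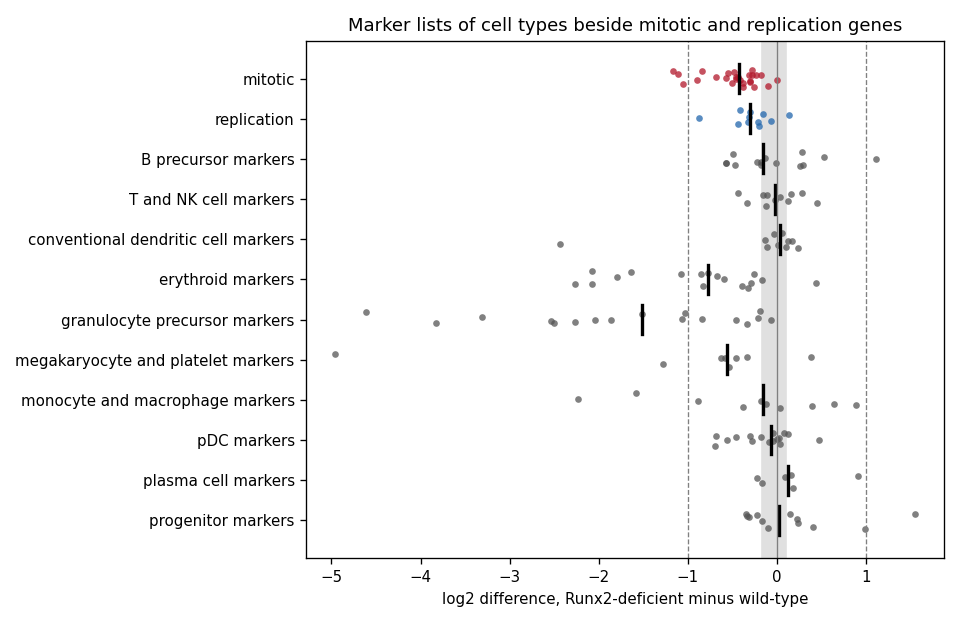
Each point is a gene, plotted by its log2 difference (Runx2-deficient minus wild-type), with the list median as a black bar, the quartile range of all named genes in grey and 2-fold as dashed lines. Granulocyte precursor (median -1.52) and erythroid (-0.78) markers have lower medians than mitotic (-0.43) and replication (-0.30) genes, while pDC and progenitor markers centre near 0.

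All but 1 of the mitotic genes lay on the same side. Of 26 measured genes, 25 were lower in the Runx2-deficient sample, with a median of -0.43, quartiles of -0.57 and -0.28, and 3 genes at least 2-fold lower (2 with median centring, which put Aurkb within 2-fold). Bub1b, a spindle checkpoint kinase, was the exception, at intensities of 448 (wild-type) and 449 (Runx2-deficient). At 1.5-fold the lower count was 6. Of all named genes, 56.7% were lower, 0.647% at least 2-fold and 2.22% at least 1.5-fold. The summed intensity of the 26 genes was 20722 in wild-type and 14170.2 in Runx2-deficient cells, and the granulocyte precursor and erythroid medians on these arrays were -1.52 and -0.78.

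Among mitotic kinases the difference ran from none to over 2-fold. Plk1, the Polo kinase that drives mitotic entry and spindle assembly, was at 691 in wild-type and 308 in Runx2-deficient cells, 2.25-fold lower. A share of 0.871% of named genes past the filter were as low or lower than this difference of -1.17. Aurkb, the kinase of the chromosomal passenger complex, was at 1187 and 571, 2.08-fold lower, while its complex partner Birc5 (survivin) was at 283 and 239.9, a difference of -0.24. Aurka, the kinase of the spindle poles, was at 400.5 and 308 (-0.38), and its activator Tpx2 at 480.3 and 348 (-0.47). Cdk1, the kinase at the centre of mitotic entry, was at 708 and 569 (-0.32). The checkpoint kinases Bub1 and Ttk differed by -0.44 and -0.18, Ttk at levels below the filter on both arrays. Aurkb and Aurka differed unequally on the same arrays, -1.06 against -0.38.

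The 2 measured cyclins of G2 and mitosis, Ccnb2 and Ccna2, differed by more than Cdk1, while Ccnb1 was not measured. Ccnb2, a B-type cyclin, was at 2108 in wild-type and 1134 in Runx2-deficient cells, a difference of -0.89. Ccna2, the A-type cyclin of S phase and G2, was at 1542 and 861, a difference of -0.84. Both differences were larger in size than that of Cdk1 itself, -0.32. Cdc20, the activator of the ubiquitin ligase that destroys these cyclins at anaphase, was at 314 and 259 (-0.28).

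The 2 members that are transcription factors of mitotic genes differed unequally. Foxm1, the forkhead factor that activates G2 and mitotic genes, was at 572 in wild-type and 264 in Runx2-deficient cells, 2.17-fold lower, with 0.938% of filtered genes as low or lower. Mybl2 (B-MYB), which joins the MuvB complex in S phase, was at 294 and 243, a smaller difference of -0.28. For Mybl2, 17.2% of filtered genes were as low or lower.

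The measured motor and structural genes of the spindle were lower, as were those of the centromere. The 4 kinesin genes spanned -0.58 to -0.25. Kif20a and Kif23, motors of the central spindle, were at 427 and 287 (-0.58) and at 1390.1 and 997 (-0.48), and Kif11, which pushes the spindle poles apart, at 1365 and 932 (-0.55). Kif2c, which dismantles kinetochore microtubules, differed by -0.25. Prc1, which bundles the microtubules of the central spindle, was at 477 and 298, a difference of -0.68 and the largest among these genes. Nusap1, another spindle microtubule protein, was at 994 and 722 (-0.46). Of the centromere and kinetochore genes, Cenpa, the histone variant that marks centromeres, was at 1296 and 911 (-0.51), Cenpf and Cenpe differed by -0.38 and -0.30, and Ndc80, dim on both arrays, by -0.11.

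Mki67 and Top2a, widely used marks of dividing cells, were lower by less than the leading genes. Mki67, which coats mitotic chromosomes, was at 2443.5 in wild-type and 1829 in Runx2-deficient cells (-0.42), with 8.31% of filtered genes as low or lower. Top2a, the topoisomerase that untangles sister chromatids, was at 1095 and 886 (-0.31). A second, dim Top2a probe set differed by -0.054. Both genes remained well above the filter in the Runx2-deficient sample, at 10.84 and 9.79 on the log2 scale.

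**Figure D3:**
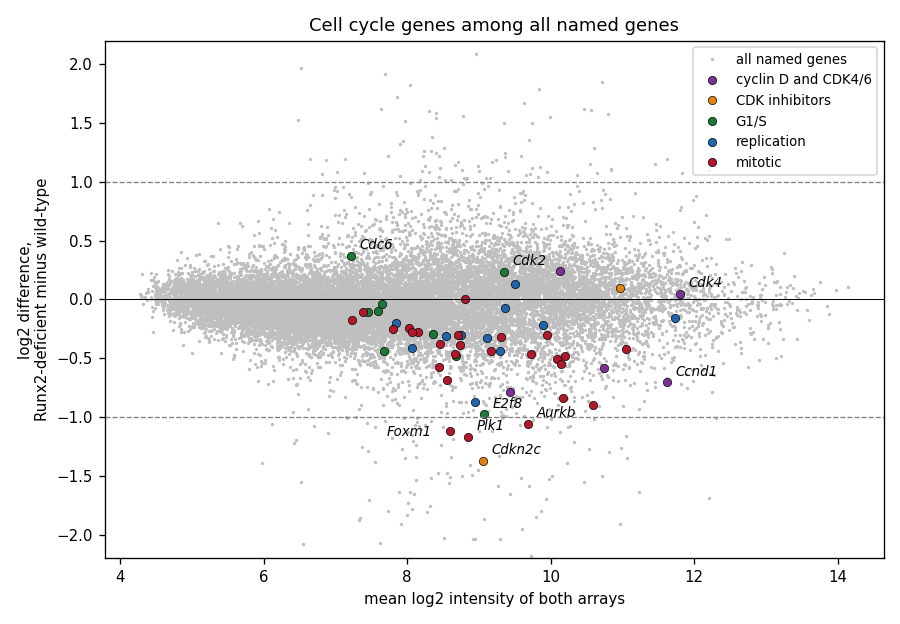
Grey points are all named genes and coloured points the 53 members, plotted by mean log2 intensity of both arrays (x) and log2 difference, Runx2-deficient minus wild-type (y), with 2-fold as dashed lines. Another 32 named genes lie beyond the y axis limits of 2.2, and 4 members lie below the lower dashed line.

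The median mitotic difference went with brightness, though not gene by gene. Mki67, the brightest mitotic gene, differed by -0.42, while Plk1, at 9.43 in wild-type on the log2 scale, differed by -1.17. In mitotic genes with a mean log2 intensity from 7 to 8.5 the median was -0.27 (8 genes), from 8.5 to 9.5 it was -0.44 (9 genes), and from 9.5 to 12 it was -0.51 (9 genes). All named genes in these ranges had medians of -0.074, 0.0018 and 0.023, so the mitotic genes were below the background at each level. The 11 replication genes did not show that order, at -0.31 (2 genes), -0.31 (7 genes) and -0.19 (2 genes).

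Replication genes were lower by smaller amounts. Of 11 genes, 10 were lower, with a median of -0.30, quartiles of -0.37 and -0.18, and none at 2-fold. The exception was Mcm7, and 56.7% of all named genes were lower. The 6 subunits of the MCM2-7 helicase, which unwinds DNA at the replication fork and works as 1 ring of all 6, differed by -0.44 (Mcm2, 731 in wild-type and 538 in Runx2-deficient cells), -0.41 (Mcm3, 310.1 and 233), -0.33 (Mcm5, 624 and 496), -0.30 (Mcm4, 476 and 386), -0.069 (Mcm6, 676 and 644) and 0.13 (Mcm7, 691 and 757). The sign of Mcm6 turned with median centring, and the subunits of this ring did not differ evenly. Mcm10, a fork assembly factor, differed by -0.20. Pcna, the sliding clamp of the DNA polymerases, was bright on both arrays, at 3604 and 3224 (-0.16), and its second probe set gave -0.17.

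Of the genes for making DNA building blocks, Rrm2 stood furthest apart. Rrm2, the subunit of ribonucleotide reductase that is made only in dividing cells, was at 669 in wild-type and 366 in Runx2-deficient cells, a difference of -0.87. Its partner Rrm1, whose protein is longer lived, was at 1029 and 886 (-0.22). Tyms, thymidylate synthase, was at 417 and 335 (-0.31).

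G1/S genes went both ways. Of 9 genes, 7 (77.8%) were lower and 2 higher, with a median of -0.11 and none at 2-fold. Of all named genes, 56.7% were lower, 0.647% at least 2-fold lower and 0.436% at least 2-fold higher. The E2F factors were the lowest of the 9 G1/S genes. E2f8, a repressor that is itself made in S phase, was at 758 in wild-type and 385 in Runx2-deficient cells (-0.98, just short of 2-fold). E2f1 was at 485 and 348 (-0.48) and E2f2 at 238 and 176 (-0.44), both activators of S phase genes. Ccne1, the cyclin that pairs with CDK2 at S phase entry, was at 363 and 296 (-0.29). Ccne2, Cdt1 and Brca1 differed by -0.038, -0.097 and -0.11, and the sign of Ccne2 turned with either scaling, with Ccne2 and Cdt1 close to the filter level on both arrays and Brca1 below it. The 2 genes on the other side were Cdk2, at 604 and 710.5 (0.23), and the replication licensing gene Cdc6, at 131 and 169 (0.37), which was dim on both arrays. Over the 7 genes past the filter the G1/S median was -0.29, so the group's median depended on its dim members.

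The cyclin D genes split. Ccnd1, a cyclin that couples growth signals to G1, was at 4012 in wild-type and 2464 in Runx2-deficient cells (-0.70), and Ccnd3, the D-type cyclin most used by lymphoid precursors, at 910.4 and 529 (-0.78). Ccnd2 was at 1029 and 1219, a difference of 0.24 the other way. Their kinases split too. Cdk6 was at 2096 and 1398 (-0.58) and Cdk4 at 3531.5 and 3646 (0.046). The median of these 5 genes was -0.58, and -0.27 without Ccnd3.

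The CDK inhibitors held the largest difference of all 53 genes. Cdkn2c (p18INK4c), which binds CDK4 and CDK6 and is itself induced by E2F, was at 859 in wild-type and 332 in Runx2-deficient cells, 2.59-fold lower, and 0.697% of filtered genes were as low or lower. Cdkn1b (p27KIP1), which blocks CDK2 and is high in resting cells, was at 1932 and 2069 (0.099). A second, dimmer Cdkn1b probe set gave 0.62, in the same direction. The inhibitor median of -0.64 rests on these 2 genes and was 0.099 with Cdkn1b alone. The probe set that Cdkn1a shares with 4930567H12Rik was at 6.10 and 5.65 on the log2 scale, below the filter on both arrays.

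**Figure D4:**
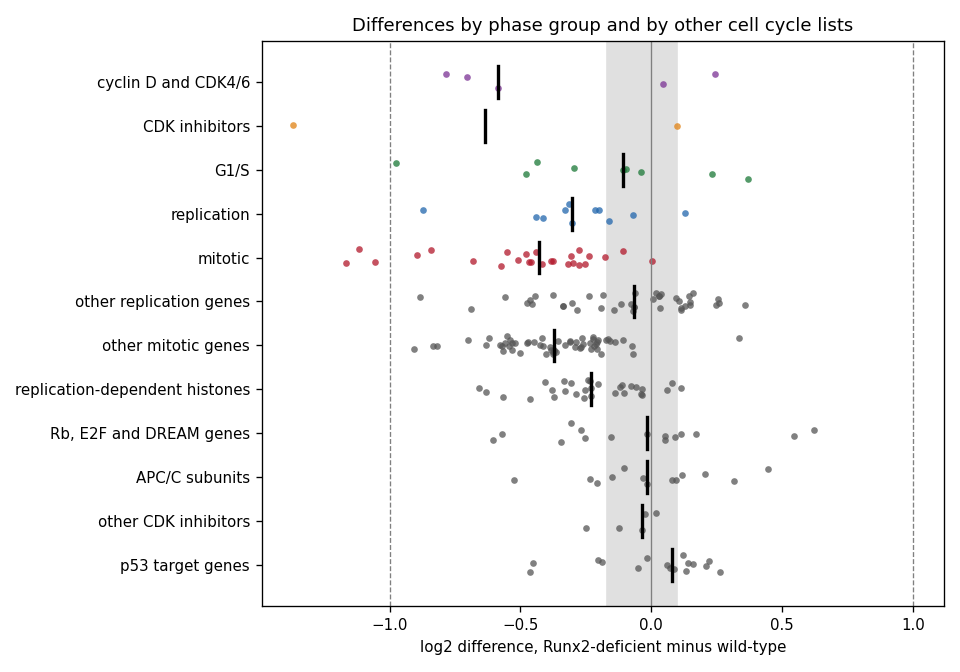
Each point is a gene, plotted by its log2 difference (Runx2-deficient minus wild-type), with the list median as a black bar, the quartile range of all named genes in grey and 2-fold as dashed lines. Mitotic genes (-0.43) and other mitotic genes (-0.37) lie almost wholly left of 0, while other replication genes (-0.065) lie on both sides.

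Further cell cycle genes outside the 55 were set beside them. Of 59 other mitotic genes, 58 were lower, beside 56.7% of all named genes, with a median of -0.37, and 0 were 2-fold apart. The lowest were the kinesin gene Kif18b (-0.91), Ube2c, the ubiquitin-conjugating enzyme of the anaphase-promoting complex (-0.83), and the condensin gene Ncaph (-0.82), and the 1 higher gene was Pttg1 (securin), at 0.34. The 41 other replication genes had a median of only -0.065, with 22 lower and 19 higher, from Pold1, a subunit of DNA polymerase delta (-0.88), and the clamp loader genes Rfc5 (-0.69) and Rfc4 (-0.56) to Orc5 (0.36), Rfc1 (0.26) and Orc2 (0.26). The medians were thus -0.30 for the 11 replication members against -0.065 for other replication genes, and -0.43 against -0.37 for the mitotic lists.

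Histone genes of the replication-dependent clusters, taken by name, were lower in 27 of 30 cases, beside 56.7% of all named genes, with a median of -0.23. These clusters are expressed mainly in S phase, though a list taken by name can hold genes that are not. Of the 30, 9 were dim on both arrays, among them H3c7 and H3c15. H2bc8, H2bc4 and H2bc21 were the lowest, at -0.66, -0.63 and -0.57, and H3c7, H3c15 and H4c8 the 3 higher ones, at 0.11, 0.079 and 0.060. These genes are near-identical copies, so signal assigned to single ones is uncertain, and such messages lack the poly(A) tail of other mRNAs.

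Regulators of the Rb and E2F step had a median near 0. Of 15 Rb, E2F and DREAM genes, 8 (53.3%) were lower and 7 higher (median -0.017), near the 56.7% of all named genes that were lower. The repressive E2f4 and E2f7 differed by -0.60 and -0.57, and the histone-binding gene Rbbp4 by -0.34. E2f3, an activating E2F, was 1.54-fold higher, the MuvB gene Lin9 1.46-fold higher, and Rb1, the retinoblastoma gene, differed by 0.17.

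Genes for the anaphase-promoting complex, the ubiquitin ligase that ends mitosis, also centred on 0. Of 13, 7 (53.8%) were lower and 6 higher (median -0.015), near the 56.7% of all named genes that were lower. Fzr1 (CDH1), the G1 activator of the complex, was the lowest, at -0.52, and Anapc4 the highest, at 0.45. Of 5 other genes named as CDK inhibitors, none was 2-fold apart, and 2 were dim on both arrays. Among all named genes, 0.647% were at least 2-fold lower and 0.436% at least 2-fold higher. Cdkn3 (-0.25) was furthest from 0 of the 5. Of 16 p53 target genes, which report a DNA damage arrest in many cells, 6 (37.5%) were lower and 10 higher (median 0.079). They ran from Sesn2 (-0.46) and Ei24 (-0.45) to Phlda3 (0.26) and Btg2 (0.22), and 5 of the 16 were dim on both arrays.

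The promoters of the phase groups held some words in different shares, a feature that the arrays do not measure. Known elements are the CHR, where the DREAM and MYB-MuvB complexes bind, the CCAAT box bound by NF-Y, and the E2F site. RefSeq promoter windows (GRCm38.p6, 250 bases before and 50 after the start) were found for 46 of the 55 genes, and not for Aurkb, Ccna2, Ccnd1, Ccnd2, Ccne2, Foxm1, Kif20a, Mcm4 and Tpx2. They were searched on both strands for TTTGAA or TTCGAA (CHR), for CCAAT, for TTTCCCGC, TTTGGCGC, TTTCGCGC or TTTGCCGC (E2F), and for TGTGGT, the core word of Runt domain factors. A gene counted where any of its windows held the word. A match is only a run of letters and not evidence of binding.

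The sequences below were picked to show the arrangement in mitotic genes (Ccnb2, Prc1, Cdk1, Kif11), in the G1/S gene that differed most (E2f8), and in replication genes with E2F words (Mcm6, Mcm3). Each runs 5′ to 3′ along its gene's strand, from 120 bases before to 30 bases after the start, with CHR, CCAAT and E2F words in capitals on whichever strand they were found.
Ccnb2, chr9:70421525-70421674, minus strand: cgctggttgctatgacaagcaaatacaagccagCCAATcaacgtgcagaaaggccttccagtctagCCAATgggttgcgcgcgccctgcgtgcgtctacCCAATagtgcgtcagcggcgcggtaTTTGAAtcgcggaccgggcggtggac
Prc1, chr7:80294331-80294480, plus strand: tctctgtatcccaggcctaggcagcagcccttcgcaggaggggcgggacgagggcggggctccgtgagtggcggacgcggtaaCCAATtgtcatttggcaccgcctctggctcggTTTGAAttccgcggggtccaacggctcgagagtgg
Cdk1, chr10:69352883-69353032, minus strand: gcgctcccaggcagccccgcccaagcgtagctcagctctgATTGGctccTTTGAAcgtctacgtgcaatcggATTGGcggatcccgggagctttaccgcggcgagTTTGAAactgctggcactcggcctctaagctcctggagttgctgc
Kif11, chr19:37376262-37376411, plus strand: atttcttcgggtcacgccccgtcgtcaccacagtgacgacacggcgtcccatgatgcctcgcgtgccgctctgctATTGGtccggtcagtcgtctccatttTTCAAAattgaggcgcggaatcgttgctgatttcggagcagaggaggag
E2f8, chr7:48881567-48881716, minus strand: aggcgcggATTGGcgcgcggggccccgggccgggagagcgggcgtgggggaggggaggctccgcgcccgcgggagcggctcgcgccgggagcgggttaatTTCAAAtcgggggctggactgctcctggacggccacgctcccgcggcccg
Mcm6, chr1:128359676-128359825, minus strand: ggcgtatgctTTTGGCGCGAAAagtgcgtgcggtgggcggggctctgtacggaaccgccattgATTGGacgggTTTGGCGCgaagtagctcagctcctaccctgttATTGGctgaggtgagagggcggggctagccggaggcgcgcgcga
Mcm3, chr1:20820283-20820432, minus strand: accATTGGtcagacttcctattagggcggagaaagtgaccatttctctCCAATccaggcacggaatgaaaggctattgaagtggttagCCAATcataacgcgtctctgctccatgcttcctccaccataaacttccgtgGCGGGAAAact

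In Ccnb2, 3 CCAAT words lay 87, 54 and 21 bases before the start, evenly spaced, with a CHR word just after the start and another 167 bases before it, outside the stretch shown. Prc1 and Kif11 each carried 1 CCAAT word followed by a CHR word, 37 and 5 bases before the start in Prc1 and 45 and 19 in Kif11. Cdk1 had 2 such pairs in the stretch shown. E2f8, a G1/S gene by role, held a CHR word 20 bases before the start and a CCAAT word 112 bases before it. In Mcm6, 2 E2F words overlap at the left of the line, 110 and 106 bases before the start.

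Over the group, 17 of 22 mitotic genes with a window (77.3%) held a CHR word, against 19.0% of the 15614 named genes of the array with a window and 19.2% of all 32851 windows. The other mitotic genes gave 72.0% (36 of 50). A CHR word was also in 2 of 8 G1/S and 2 of 10 replication genes. CCAAT was found in 77.3% of mitotic and 90.0% of replication genes, against 41.7% of array genes and 37.4% of windows. E2F words were in 4 of 8 G1/S genes and 4 of 10 replication genes (40.0%), and in 1 of 22 mitotic genes, beside 3.48% of array genes and 2.26% of windows. The Runt word was in 3 of 22 mitotic, 3 of 10 replication and 0 of 8 G1/S genes, beside 16.4% of array genes and 16.8% of windows. In the cyclin D and CDK4/6 group it was in 1 of 3 genes, Cdk4. The 17 measured mitotic genes with a CHR word had a median difference of -0.38, from -1.17 (Plk1) to 0.0040 (Bub1b), and the 4 without one -0.29, from -0.46 to -0.24. Genes with and without the word thus overlapped in their array differences.

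**Figure D5:**
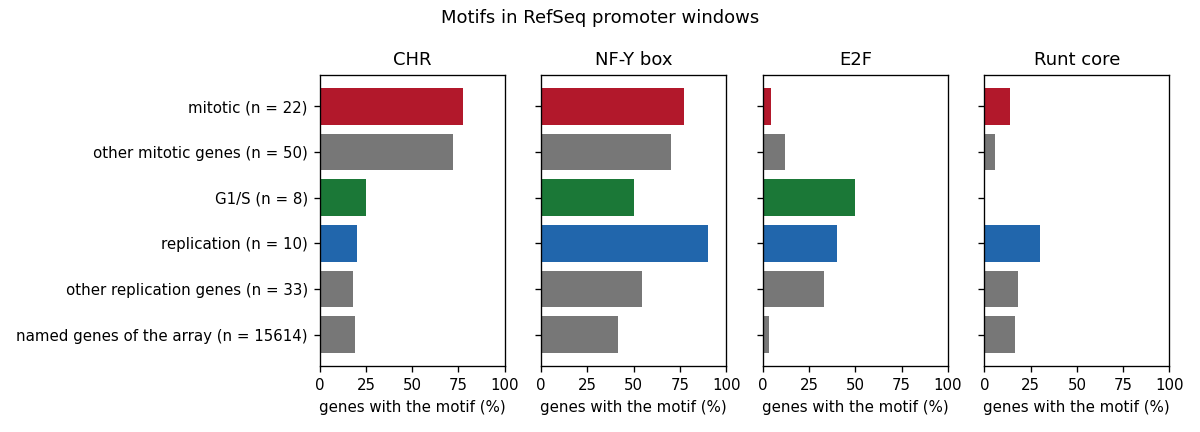
Bars give the percent of genes in each list whose RefSeq promoter window holds the motif on either strand, with the number of genes that have a window in brackets; the NF-Y box is the CCAAT word. The CHR bar is 77.3% for mitotic genes and 19.0% for named genes of the array, and the E2F bar is 40.0% for replication genes and 3.48% for named genes of the array.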

How the data were processed

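The deposited table holds linear intensities, 1 value per probe set and array, which the authors made with RMA (robust multi-array average) per the submitters' processing notes; no source names the software or says which arrays were normalised together. This method shrinks differences between dim probe sets, and there is no detection call in the table. Values were taken to log2, a step made here on the deposited intensities, and differences were formed as Runx2-deficient minus wild-type. Of 35556 probe sets, the 21789 with exactly 1 gene symbol were named, and of several per gene the brightest was used. The annotation can be old. Summaries are counts at 2-fold and medians, with no test, since there was 1 array per genotype; their number limits the precision. The members, lists and motifs were chosen with earlier results of these data known. All members may be named; of other lists, up to 3 genes in each direction were, beside dim defining markers. Alternatives were median centring, a loess correction (span 0.3), filters on brightness, averaging the probe sets of a gene, a threshold of 1.5-fold and leaving out a group's most extreme member. The summary code was tested on simulated data. Summaries were computed in Python 3.11.15 with pandas 2.3.3 and numpy 2.4.6, the loess fit with statsmodels 0.14.6, and the plots with matplotlib 3.10.9.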

Additional observations from a re-analysis of the deposited data

How the results depend on the processing

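The mitotic and replication medians stayed below 0 under each scaling, filter and probe set rule tried. Median centring moved Aurkb from -1.06 to -0.98, which took the mitotic count at 2-fold from 3 to 2, and turned the sign of Ccne2 and Mcm6; the loess correction turned that of Ccne2. The G1/S median was -0.29 over members past the median brightness filter and -0.39 over those past the 60th percentile, where fewer genes enter. The cyclin D and CDK4/6 median was -0.27 without Ccnd3. The CDK inhibitor median was -0.51 with probe sets averaged and 0.099 without Cdkn2c, which leaves 1 gene. At 1.5-fold, 6 mitotic, 1 replication, 1 G1/S and 2 cyclin D and CDK4/6 genes were lower. No paired analysis was possible because each genotype has 1 array. Averaging probe sets moved Cdkn1b to 0.36 and Top2a to -0.18. Genes near or below the filter have little signal over background, and the arrays carry little information on them.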

Other observations

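Replication genes outside the 55 differed by complex, in a grouping made after the members' values were seen and given without a test. For scale, 56.7% of all named genes were lower in the Runx2-deficient sample. The origin recognition complex marks where replication starts. Of its 6 genes, 5 were higher and 1 lower in the Runx2-deficient sample, with a median of 0.13, and the lower gene was dim on both arrays. The 7 DNA polymerase and primase genes had 3 lower and 4 higher (median 0.036). The 5 GINS and CDC45 genes, 1 of them dim on both arrays, had 3 lower (median -0.066). The 5 replication factor C genes also had 3 lower (median -0.065). Of the mitotic complexes, all 5 condensin genes measured, which compact chromosomes, were lower, with a median of -0.42, as were the 3 other genes of the NDC80 kinetochore complex, with a median of -0.57.

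Probe sets that carry only several histone genes each were left out of the gene comparison, because their copies cannot be told apart. Of 24 such probe sets, with 22 distinct pairs of values, 22 distinct pairs were lower in the Runx2-deficient sample, from -0.44 to -0.15, with a median of -0.27. They measure overlapping sets of genes and are not independent of each other.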
